A study of Homo sapiens with 24 samples.

Results

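The KRAB corepressor and heterochromatin genes examined here are TRIM28, SETDB1, ATF7IP, CBX1, CBX3, CBX5, SUV39H1, SUV39H2, EHMT1 and EHMT2. They were chosen by gene name, which picked out 10 of the 58884 genes listed in each of 2 expression tables. All 10 are protein-coding, and all 10 passed the filter on low values in both tables, a TPM of 0.5 or more in 2 or more libraries. TPM states a gene's share of the transcripts of a library once gene length is allowed for.

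Many zinc finger proteins with a KRAB domain bind DNA, often in transposable elements, and recruit TRIM28 (KAP1), a scaffold that brings in silencing enzymes. SETDB1, held stable in the nucleus by ATF7IP, then trimethylates lysine 9 of histone H3 (H3K9), and HP1 proteins encoded by CBX1, CBX3 and CBX5 bind the methylated tail. SUV39H1 and SUV39H2 trimethylate H3K9 in constitutive heterochromatin, and EHMT1 and EHMT2 form a heterodimer that mono- and dimethylates H3K9 in euchromatin.

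RNA was measured in 10 libraries of HEK293T, a human embryonic kidney cell line, by RNA-seq after ribodepletion and polyA enrichment. The first table held 2 WT and 2 KO libraries, and the second held 2 KO libraries, 2 of KO cells given full-length SETD2 (SETD2 FL) and 2 of KO cells given its C-terminal segment of residues 1404 to 2564 (SETD2 C). The SETD2 C libraries carry the label N3, which was taken to mean this segment. SETD2 is the histone methyltransferase that trimethylates lysine 36 of histone H3. The KO line was described as carrying no intact copy of its gene. WT and KO cells were labelled untreated, while SETD2 FL and SETD2 C were tagged constructs transfected under a CMV promoter. No vector control was among the libraries. In the comparisons with KO, an effect of transfection and an effect of a construct therefore cannot be told apart. SETD2 C against SETD2 FL compared libraries that were both transfected. The replicates were not stated to be separate cultures, so the p values measure the spread between libraries, which may be technical. The values are bulk TPM that add up to 1 fixed total, the sequencing depth is unknown, and fewer cells expressing a gene and less RNA per cell cannot be told apart.

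SETD2 RNA did not set the libraries labelled KO apart from WT. SETD2 TPM was 12.6 and 14.8 in the WT libraries and 16.2 and 16.3 in the libraries labelled KO of the first table. The libraries labelled KO of the second table held 11.99 and 12.15, while SETD2 FL gave 439 and 422 and SETD2 C gave 1329 and 1264. The KO values lay above both WT values without passing the test (log2 fold change 0.11, SE 0.08, limma, Benjamini-Hochberg adjusted p = 0.408), and the labels of these libraries therefore cannot be checked by the level of the transcript. SETD2 RNA rose with SETD2 FL (log2 fold change 5.08, SE 0.06, limma, Benjamini-Hochberg adjusted p = 7.3e-09) and with SETD2 C (6.54, SE 0.06, adjusted p = 1.0e-09), and SETD2 C exceeded SETD2 FL (1.46, SE 0.06, adjusted p = 7.1e-06). The paper, by contrast, reports no significant difference in mRNA level between the constructs in its RNA-seq data. It also cites earlier work in which their transcript levels were comparable. The measures are not alike, as the paper used edgeR for differential expression. TPM allows for annotated transcript length, whereas SETD2 C holds only part of the coding sequence, and the part of this in the difference was not tested.

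Values below, called scaled TPM, are TPM divided by a factor per library, namely its median ratio over genes to the table's geometric means. The tests are limma tests on log2(scaled TPM + 0.5) within a table, adjusted by the Benjamini-Hochberg method over 14746 genes in the first table and 15933 in the second. A change passed at an adjusted p of at most 0.05. The alternatives counted beside a gene below are those that keep this threshold, so the added 2-fold limit, which none of the 10 genes met, is not among them. With 2 libraries a group, an exact permutation test of 1 gene cannot give a p below 0.333, so only the fit across all genes was used. Both comparisons with KO in the second table share the KO libraries, and both comparisons of SETD2 C share the SETD2 C libraries.

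The 10 genes spanned a wide range of levels. In the second table TRIM28 lay at percentile 98.4 of expressed protein-coding genes in KO, CBX3 at percentile 96.05 and CBX1 at percentile 92.3. ATF7IP was the lowest, at percentile 36.8, and the other 6 genes lay between percentile 53.2 (SUV39H1) and percentile 79.4 (EHMT2).

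**Figure D1:**
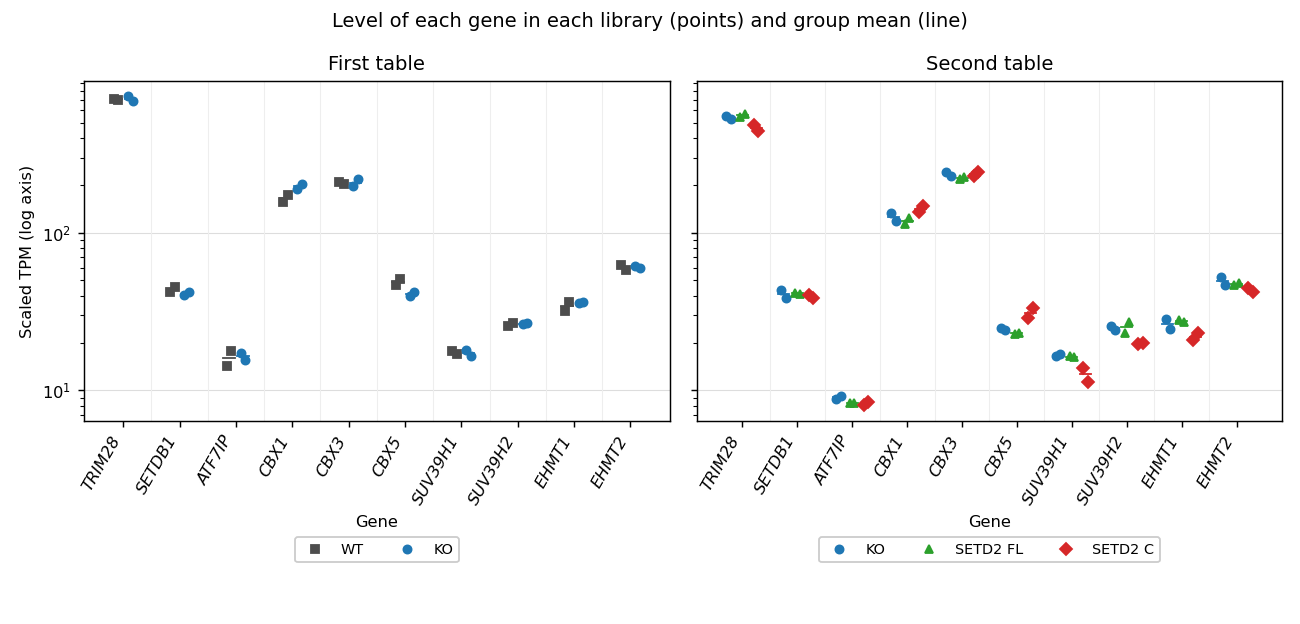
Scaled TPM on a log axis of the 10 genes in every library of the first table (left) and the second (right), with each library as a point and each group mean as a line. The KO and SETD2 FL points of a gene lay close together, whereas CBX5 lay at 28.9 and 33.5 with SETD2 C against 24.8 and 24.1 in KO, and SUV39H1 at 13.9 and 11.4 against 16.6 and 17.1.

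The libraries labelled KO were compared with WT in the first table. None of the 10 genes passed the test between the libraries labelled KO and WT. CBX1 was the member with the highest estimate (log2 fold change 0.25, SE 0.08) and CBX5 the one with the lowest (-0.25, SE 0.08), and the other 8 lay between -0.08 and 0.08. Across all genes tested, 661 (4.48%) passed with limma, 194 higher (1.32%) and 467 lower (3.17%), and 200 of them (1.36%) differed by at least 2-fold. At an unadjusted p under 0.05, 2 of the 10 genes (CBX1 and CBX5) and 24.9% of all genes differed. The 95% confidence intervals of the 10 genes reached from -0.43 to 0.45. The median log2 fold change was 0.01 over the 10 genes and -0.01 over all genes tested.

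Full-length SETD2 given to KO cells was the next comparison. None of the 10 genes passed between SETD2 FL and KO, and their log2 fold changes lay between -0.12 (ATF7IP) and 0.06 (EHMT1). The 95% intervals reached from -0.30 to 0.27, so changes of up to that size were not distinguishable from none. Across all genes 33 (0.207%) passed with limma, 28 higher (0.176%) and 5 lower (0.0314%), 13 of them (0.0816%) by at least 2-fold. At an unadjusted p under 0.05, 0 of the 10 genes and 15.9% of all genes differed.

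Relative to KO, the C-terminal segment went with changes in TRIM28, an HP1 gene and both SUV39H genes. In KO cells with SETD2 C, CBX5 rose and TRIM28, SUV39H1 and SUV39H2 fell relative to KO, each by less than 2-fold. Thus 4 of the 10 genes passed with limma, 1 higher and 3 lower, where 5764 of all genes (36.2%) passed, 3359 higher (21.1%) and 2405 lower (15.1%). A change of at least 2-fold was called for 0 of the 10 genes and for 647 of all genes (4.06%), while 6 of the 10 genes and 47.1% of all genes had an unadjusted limma p under 0.05. The share of the 10 genes that passed was thus close to that of all genes. Their median change on the log2 scale was -0.17, against 0.05 for all genes tested.

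Between the SETD2 C and SETD2 FL libraries, CBX1 and CBX5 were higher with SETD2 C and TRIM28, SUV39H1, SUV39H2 and EHMT1 were lower. These 6 of 10 genes stood beside 6087 of all genes (38.2%) that passed with limma, 3411 higher (21.4%) and 2676 lower (16.8%). None of the 6 changed by 2-fold, as 603 of all genes (3.78%) did, and 6 of the 10 genes and 48.8% of all genes had an unadjusted limma p under 0.05. The median was -0.10 for the 10 genes and 0.04 for all genes.

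Scaling moved the balance of these counts. With TPM as deposited, the all-gene median shifted to 0.11 for KO against WT, 0.18 for SETD2 C against KO and 0.16 for SETD2 C against SETD2 FL. With TPM rescaled without mitochondrial genes and SETD2, it shifted to 0.13 for SETD2 C against KO. For SETD2 C against KO, 58.3% of the genes that passed were higher, against 83.1% without scaling, 75.7% with that rescaling, 46.9% with quantile normalization, 46.7% after adjustment for GC content and 46.6% after adjustment for transcript length. For KO against WT the share was 29.3% and 53.3% without scaling. For SETD2 C against SETD2 FL it was 56.0%, with 77.5% without scaling and 45.8% after adjustment for length, and for SETD2 FL against KO it was 84.8%, with 95.8% after adjustment for GC content. Directions of the members that passed kept their sign under each of these scalings.

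**Figure D2:**
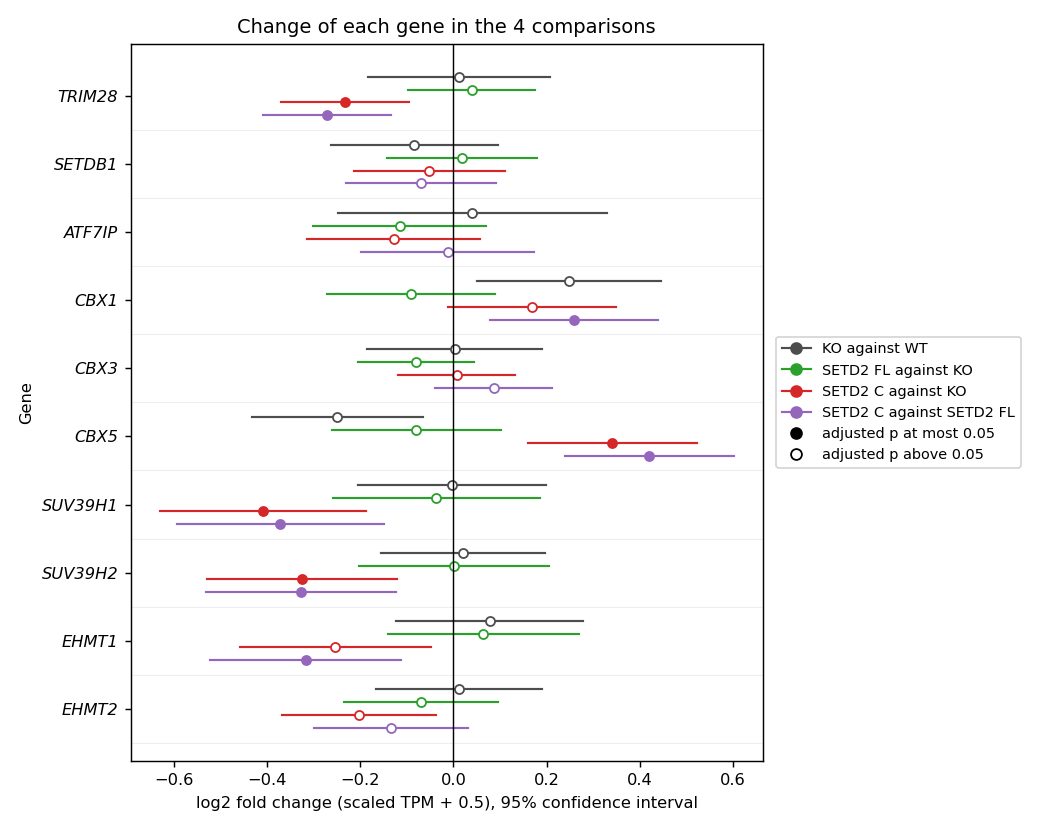
Log2 fold change of each gene (point) with its 95% confidence interval (line) in the 4 comparisons, filled where the Benjamini-Hochberg adjusted p from limma was at most 0.05. Filled points are seen only for SETD2 C, with CBX5 at 0.34 and 0.42 and SUV39H1 at -0.41 and -0.37 against KO and SETD2 FL.

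TRIM28 (ENSG00000130726, chromosome 19 from 58544064 to 58550722 of GRCh38, plus strand, 17 exons) encodes the corepressor that KRAB domains recruit. It was the most abundant of the 10 transcripts. Its scaled TPM was 709 and 702 in WT and 735 and 688 in KO of the first table. In the second it was 555 and 529 in KO, 546 and 567 for SETD2 FL and 481 and 441 for SETD2 C. WT and KO overlapped, as did KO and SETD2 FL, while both SETD2 C libraries lay below the other 4. TRIM28 fell with SETD2 C relative to KO (log2 fold change -0.23, SE 0.06, a fall of 14.9%, limma, Benjamini-Hochberg adjusted p = 0.0187) and relative to SETD2 FL (-0.27, SE 0.06, adjusted p = 0.00936). As deposited, TRIM28 TPM overlapped between SETD2 C (512 and 472) and KO (536 and 506), and without scaling the limma adjusted p by the Benjamini-Hochberg method was 0.351 against KO and 0.121 against SETD2 FL. The call against KO was also lost with quantile normalization (limma, Benjamini-Hochberg adjusted p = 0.0659), with TPM rescaled without mitochondrial genes and SETD2 (0.109), with a filter of any TPM above 0 (0.0538) and without the trend in eBayes (0.0706). It was lost without KO replicate 2 (0.0967) or SETD2 C replicate 2 (0.117), and the call against SETD2 FL was lost without SETD2 C replicate 2 (0.0624). Over 15 alternatives these limma, Benjamini-Hochberg adjusted p values ran from 0.00767 to 0.351 against KO and from 0.00528 to 0.121 against SETD2 FL.

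SETDB1 and ATF7IP, the methyltransferase recruited by TRIM28 and its stabilizing partner, passed in none of the 4 comparisons. SETDB1 (ENSG00000143379, chromosome 1 from 150926263 to 150964744, plus strand, 22 exons) had scaled TPM of 42.1 and 45.2 in WT and 40.3 and 42.0 in KO of the first table. The second table gave 43.2 and 38.4 in KO, 41.4 and 41.0 for SETD2 FL and 40.0 and 38.5 for SETD2 C. The SETD2 FL and SETD2 C libraries all lay within the range of the KO pair. The SETDB1 estimate against KO was -0.05 with SETD2 C (SE 0.07, limma, Benjamini-Hochberg adjusted p = 0.592). SETDB1 shares 4162 bp with CERS2 on the other strand, and without strand information reads from such a pair cannot be told apart.

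ATF7IP (ENSG00000171681, chromosome 12 from 14365676 to 14502931, plus strand, 15 exons) had scaled TPM of 14.2 and 17.8 in WT and 17.2 and 15.6 in KO of the first table. Its values in the second table were 8.86 and 9.24 in KO, 8.32 and 8.30 for SETD2 FL and 8.02 and 8.46 for SETD2 C. Every transfected library thus lay below the KO pair, by log2 fold changes of -0.12 with SETD2 FL and -0.13 with SETD2 C, neither past the threshold (limma, Benjamini-Hochberg adjusted p = 0.516 and 0.245). The estimate for SETD2 C turned to 0.01 without scaling.

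The HP1 genes carried the only increases among the 10. CBX5 (HP1 alpha, ENSG00000094916, chromosome 12 from 54230942 to 54280133, minus strand, 5 exons) had scaled TPM of 46.8 and 50.6 in WT and 39.8 and 42.0 in KO of the first table. In the second table the CBX5 values were 24.8 and 24.1 in KO, 22.9 and 23.3 for SETD2 FL and 28.9 and 33.5 for SETD2 C. Both KO libraries lay below both WT libraries, and both SETD2 C libraries lay above the other 4 of their table. The difference between KO and WT did not pass (-0.25, SE 0.08, limma, Benjamini-Hochberg adjusted p = 0.113). CBX5 rose with SETD2 C by 26.6% relative to KO (log2 fold change 0.34, SE 0.08, limma, Benjamini-Hochberg adjusted p = 0.0127) and by 33.8% relative to SETD2 FL (0.42, SE 0.08, adjusted p = 0.00489). The call against SETD2 FL held in all 15 alternatives, with limma, Benjamini-Hochberg adjusted p values from 0.000972 to 0.0309. The call against KO held in 13 of the 15 and was lost without KO replicate 4 (limma, Benjamini-Hochberg adjusted p = 0.0591) or SETD2 C replicate 2 (0.0760), within a range of 0.00196 to 0.0760.

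CBX1 (HP1 beta, ENSG00000108468, chromosome 17 from 48070052 to 48101478, minus strand, 5 exons) had scaled TPM of 158 and 175 in WT and 191 and 205 in KO. The second table gave CBX1 values of 134 and 119.6 in KO, 113 and 125 for SETD2 FL and 136 and 149 for SETD2 C. The libraries labelled KO lay above WT, and SETD2 C lay above SETD2 FL and above KO. CBX1 did not pass in KO against WT (0.25, SE 0.08, limma, Benjamini-Hochberg adjusted p = 0.133) or in SETD2 C against KO (0.17, SE 0.08, adjusted p = 0.127), and it rose in SETD2 C against SETD2 FL (0.26, SE 0.08, adjusted p = 0.0329). That call was lost without SETD2 FL replicate 3 (limma, Benjamini-Hochberg adjusted p = 0.162) or SETD2 C replicate 2 (0.174), with a filter of any TPM above 0 (0.0908), without the trend (0.0932) and after adjustment for GC content (0.0739) or length (0.0510), within 0.00657 to 0.174 over 15 alternatives. Against KO, CBX1 passed without scaling (limma, Benjamini-Hochberg adjusted p = 0.0170) and with the rescaling without mitochondrial genes and SETD2 (0.0369), within 0.0170 to 0.501.

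CBX3 (HP1 gamma, ENSG00000122565, chromosome 7 from 26201162 to 26213607, plus strand, 6 exons) is found in euchromatin as well as heterochromatin. Its scaled TPM was 209 and 206 in WT and 198 and 218 in KO of the first table, and in the second 243 and 229 in KO, 220.3 and 226 for SETD2 FL and 231 and 243 for SETD2 C. CBX3 overlapped between WT and KO and between KO and SETD2 C, while the SETD2 FL pair lay below the other 4 libraries. No comparison of CBX3 passed, and its estimates lay between -0.08 and 0.09. It passed in SETD2 C against SETD2 FL in 1 alternative, without scaling (log2 fold change 0.21, limma, Benjamini-Hochberg adjusted p = 0.0258, within 0.0258 to 0.632).

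The composition of the HP1 transcripts was read as shares of their sum. CBX5 made up 11.3% and 11.7% of the summed TPM of the HP1 genes in WT and 9.30% and 9.02% in KO of the first table. In the second its share was 6.17% and 6.48% in KO, 6.44% and 6.24% for SETD2 FL and 7.31% and 7.87% for SETD2 C. A ratio within a library does not depend on scaling, and the CBX5 share of SETD2 C lay above that of the other 4 libraries. The CBX1 share was 38.2% and 40.6% in WT and 44.5% and 43.999% in KO of the first table. The CBX3 share in the second table was 60.5% and 61.4% in KO, 61.8% and 60.4% for SETD2 FL and 58.3% and 57.1% for SETD2 C. Reads of these genes may be split with processed pseudogenes, so their levels carry that uncertainty. CBX3 has 8 annotated pseudogenes, of which CBX3P9 reached a TPM of 6.64 in the first table and 1.91 in the second. CBX1 has 5, with a highest TPM of 1.75 (CBX1P1), and CBX5 has 1, CBX5P1, at no more than 0.38.

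The promoters of the members that passed against KO with SETD2 C and had an entry are shown so that the sequence at the start of these genes can be read beside their values. Of the 10 members, 9 matched an entry in the RefSeq promoter table on GRCh38.p14, TRIM28 not among them. Where a gene had several entries, the one nearest the start of its canonical transcript is shown. A second entry of SUV39H1, 1180 bp away at the annotated start of the gene, had 7 CG dinucleotides and none of the motifs, and 2 further entries of CBX5 had no NRF1 core. Each runs 5′ to 3′ from 250 bases before to 50 after the start. Capitals mark matches on either strand to the GC box GGGCGG, the CCAAT box CCAAT and the NRF1 core GCATGCGC, none overlapping another. The ETS motif CCGGAAG and the E2F motif TTTGGCGC were also searched and had no match in these windows. The region of CBX5 is chr12:54280073-54280372 on the minus strand, that of SUV39H1 chrX:48696484-48696783 on the plus strand and that of SUV39H2 chr10:14878616-14878915 on the plus strand.
CBX5: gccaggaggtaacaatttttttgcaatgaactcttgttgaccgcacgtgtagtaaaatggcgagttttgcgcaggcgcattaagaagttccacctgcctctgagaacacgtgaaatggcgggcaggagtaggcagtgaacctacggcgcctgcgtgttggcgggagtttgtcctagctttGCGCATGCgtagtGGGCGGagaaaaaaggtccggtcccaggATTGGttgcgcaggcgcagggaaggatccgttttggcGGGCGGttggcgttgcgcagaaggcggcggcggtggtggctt
SUV39H1: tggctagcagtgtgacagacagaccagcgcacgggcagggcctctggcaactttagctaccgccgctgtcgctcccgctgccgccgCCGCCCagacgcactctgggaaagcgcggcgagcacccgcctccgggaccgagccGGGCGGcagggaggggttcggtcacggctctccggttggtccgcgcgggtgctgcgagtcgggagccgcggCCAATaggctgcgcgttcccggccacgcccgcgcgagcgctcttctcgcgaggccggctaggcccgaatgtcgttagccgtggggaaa
SUV39H2: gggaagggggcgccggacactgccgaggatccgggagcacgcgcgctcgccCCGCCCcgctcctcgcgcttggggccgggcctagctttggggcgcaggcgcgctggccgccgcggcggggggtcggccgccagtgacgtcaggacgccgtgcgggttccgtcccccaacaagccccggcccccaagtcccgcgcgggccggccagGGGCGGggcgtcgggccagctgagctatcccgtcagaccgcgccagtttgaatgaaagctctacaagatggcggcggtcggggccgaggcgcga

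CBX5, which rose, held 2 GC boxes, 1 CCAAT box and 1 NRF1 core, and 25 CG dinucleotides. SUV39H1 held 2 GC boxes, 1 CCAAT box and 42 CG dinucleotides, and SUV39H2 held 2 GC boxes and 44 CG dinucleotides. Among 34943 promoters of the same length, the GC box was found in 44.9%, the CCAAT box in 34.6%, the ETS motif in 10.2%, the NRF1 core in 3.02% and the E2F motif in 0.65%, and the median promoter held 14 CG dinucleotides. CBX5 therefore carried a motif that few promoters hold, and the SUV39H windows shown held more CG than 94.2% and 95.8% of all promoters. Motif matches were not compared with those of the members that did not pass. Among members that did not pass against KO, this share was 99.0% for EHMT1, 90.1% for CBX1 and 68.1% for EHMT2. It was 66.2% for ATF7IP, whose window held 24 CG dinucleotides beside the 25 of CBX5, 62.4% for SETDB1 and 57.2% for CBX3. A match is a description of the letters and no evidence of binding.

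SUV39H1 and SUV39H2 encode the paralogous enzymes of constitutive heterochromatin, and both fell with SETD2 C. SUV39H1 (ENSG00000101945, chromosome X from 48695554 to 48709016, plus strand, 6 exons) had scaled TPM of 17.7 and 17.0 in WT and 18.1 and 16.6 in KO of the first table. In the second table SUV39H1 stood at 16.6 and 17.1 in KO, 16.5 and 16.3 for SETD2 FL and 13.9 and 11.4 for SETD2 C. WT and KO overlapped, and both SETD2 C libraries lay below the other 4. SUV39H1 fell by 24.7% relative to KO (log2 fold change -0.41, SE 0.10, limma, Benjamini-Hochberg adjusted p = 0.0137) and by 22.7% relative to SETD2 FL (-0.37, SE 0.10, adjusted p = 0.0184). The call against KO was lost without KO replicate 4 (limma, Benjamini-Hochberg adjusted p = 0.0597), without SETD2 C replicate 2 (0.0689) and without scaling (0.0511), within 0.00665 to 0.0689 over 15 alternatives. The call against SETD2 FL was lost without SETD2 FL replicate 3 (limma, Benjamini-Hochberg adjusted p = 0.0741) or 4 (0.0599), without SETD2 C replicate 2 (0.0946), without scaling (0.0643) and with a filter of any TPM above 0 (0.0552), within 0.00723 to 0.0946.

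SUV39H2 (ENSG00000152455, chromosome 10 from 14878820 to 14904315, plus strand, 6 exons) had scaled TPM of 25.5 and 26.6 in WT and 26.2 and 26.6 in KO of the first table. Its values in the second table were 25.8 and 24.2 in KO, 23.0 and 27.3 for SETD2 FL and 19.7 and 20.04 for SETD2 C. The SETD2 FL pair spanned the KO pair, and both SETD2 C libraries lay below all 4 of them. SUV39H2 fell by 20.1% relative to KO (log2 fold change -0.32, SE 0.09, limma, Benjamini-Hochberg adjusted p = 0.0237) and by 20.3% relative to SETD2 FL (-0.33, SE 0.09, adjusted p = 0.0218). The call against KO was lost without KO replicate 2 (limma, Benjamini-Hochberg adjusted p = 0.106), KO replicate 4 (0.0504), SETD2 C replicate 1 (0.0885) or SETD2 C replicate 2 (0.0809), without scaling (0.172), with the rescaling without mitochondrial genes and SETD2 (0.0808), with a filter of any TPM above 0 (0.0632) and without the trend (0.0590), within 0.00949 to 0.172. Against SETD2 FL it was lost without SETD2 FL replicate 4 (limma, Benjamini-Hochberg adjusted p = 0.109), SETD2 C replicate 1 (0.0803) or SETD2 C replicate 2 (0.0743), without scaling (0.130), with the filter above 0 (0.0614) and without the trend (0.0552), within 0.00927 to 0.130. SUV39H2 shares 6957 bp with DCLRE1C on the other strand.

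EHMT1 (GLP, ENSG00000181090, chromosome 9 from 137618992 to 137870016, plus strand, 27 exons) had scaled TPM of 32.1 and 36.3 in WT and 35.8 and 36.3 in KO of the first table. The values of EHMT1 in the second table were 28.2 and 24.4 in KO, 27.9 and 27.0 for SETD2 FL and 20.7 and 23.2 for SETD2 C. The SETD2 C pair lay below the other 4 libraries, while KO and SETD2 FL overlapped. The difference from SETD2 FL passed (-0.32, SE 0.09, limma, Benjamini-Hochberg adjusted p = 0.0249) and that from KO did not (-0.25, SE 0.09, adjusted p = 0.0568). Without KO replicate 4 the difference from KO passed (limma, Benjamini-Hochberg adjusted p = 0.0345), as it did with a filter of TPM of at least 1 in every library (0.0480) and after adjustment for length (0.0271), within 0.0271 to 0.373. The call against SETD2 FL was lost without SETD2 FL replicate 3 (limma, Benjamini-Hochberg adjusted p = 0.09995) or 4 (0.0657), without SETD2 C replicate 1 (0.128), without scaling (0.123), with the filter above 0 (0.0689) and without the trend (0.0623), within 0.0135 to 0.128.

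EHMT2 (G9a, ENSG00000204371, chromosome 6 from 31879759 to 31897698, minus strand, 28 exons), the partner of EHMT1, had scaled TPM of 62.4 and 57.8 in WT and 61.7 and 59.6 in KO of the first table. For EHMT2 the second table gave 52.8 and 46.8 in KO, 46.8 and 48.0 for SETD2 FL and 44.4 and 41.8 for SETD2 C. The SETD2 C values were the lowest of the table, and KO and SETD2 FL overlapped. No comparison of EHMT2 passed, with -0.20 (SE 0.07, limma, Benjamini-Hochberg adjusted p = 0.0579) for SETD2 C against KO and -0.13 (adjusted p = 0.171) against SETD2 FL. The former passed without KO replicate 4 (limma, Benjamini-Hochberg adjusted p = 0.0335) and after adjustment for GC content (0.0486) or length (0.0248), within 0.0248 to 0.596.

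The H3K9 methyltransferases SETDB1, SUV39H1, SUV39H2, EHMT1 and EHMT2 were summed to see the family as a whole. Their summed scaled TPM was 167 and 151 in KO, 156 and 159.6 for SETD2 FL and 139 and 135 for SETD2 C. The SETD2 C sums lay below the other 4, whereas SETD2 C and KO overlapped in sums of the TPM as deposited. All 5 estimates for SETD2 C against KO were negative, with 2 past the threshold, and SETDB1 turned to 0.09 without scaling.

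Some members start close to another gene that is read in the other direction, and 4 such neighbours within 1000 bp were found by position. CBX5 and HNRNPA1 start 604 bp apart, and CBX3 and HNRNPA2B1 start 999 bp apart and their annotated spans share 368 bp. Neither HNRNPA1 nor HNRNPA2B1 passed in any comparison, with log2 fold changes of -0.13 and -0.06 for SETD2 C against KO. SUV39H2 and the lncRNA AC069544.1 start 139 bp apart, and the latter had scaled TPM of 1.24 and 1.15 in KO, 1.06 and 0.804 for SETD2 FL and 3.30 and 4.47 for SETD2 C. AC069544.1 thus rose with SETD2 C (1.36, SE 0.17, limma, Benjamini-Hochberg adjusted p = 0.00121) where SUV39H2 fell. EHMT1 and the lncRNA ARRDC1-AS1 start 99 bp apart, and ARRDC1-AS1 fell with SETD2 C (-0.44, SE 0.07, limma, Benjamini-Hochberg adjusted p = 0.00274), from 27.2 and 25.7 in KO to 19.9 and 18.9.

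CBX5 had the widest range of group means in the second table, 0.42 on the log2 scale. The 3 protein-coding genes with the most similar centred log2 values over the 6 libraries were CCP110, HERC4 and CEP70, at root mean square distances of 0.01, 0.02 and 0.03. CCP110 scaled TPM, for example, was 12.8 and 12.6 in KO, 12.2 and 12.3 for SETD2 FL and 15.0 and 17.6 for SETD2 C. The members also differed in base composition, from a GC content of 35.3% for CBX3 to 64.2% for TRIM28, where the median of tested genes was 48.7%. CBX5 had the longest reference transcript of the 10, 11546 nt, against a median of 2891 nt.

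Other genes of the silencing pathway were taken from 10 lists. In KO against WT and in SETD2 FL against KO, 8 of the 10 lists had 0 genes past the limma threshold, and the exceptions were the HP1 partners and the KRAB zinc finger genes. In those 8 lists the log2 fold changes ran from -0.37 to 0.35 for KO against WT and from -0.21 to 0.31 for SETD2 FL against KO. At an unadjusted limma p under 0.05, where 24.9% and 15.9% of all genes lay, the counts for KO against WT and then SETD2 FL against KO were 0 and 0 of 3 TIF1 relatives of TRIM28, 1 and 1 of 10 SUMO genes, 0 and 1 of 4 HUSH genes and 5 and 2 of 13 NuRD genes. They were 1 of 3 and 0 of 4 EHMT partners, 1 and 1 of 8 other methyltransferase genes, 1 and 0 of 11 H3K9 demethylases and 4 and 0 of 7 DNA methylation genes.

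**Figure D3:**
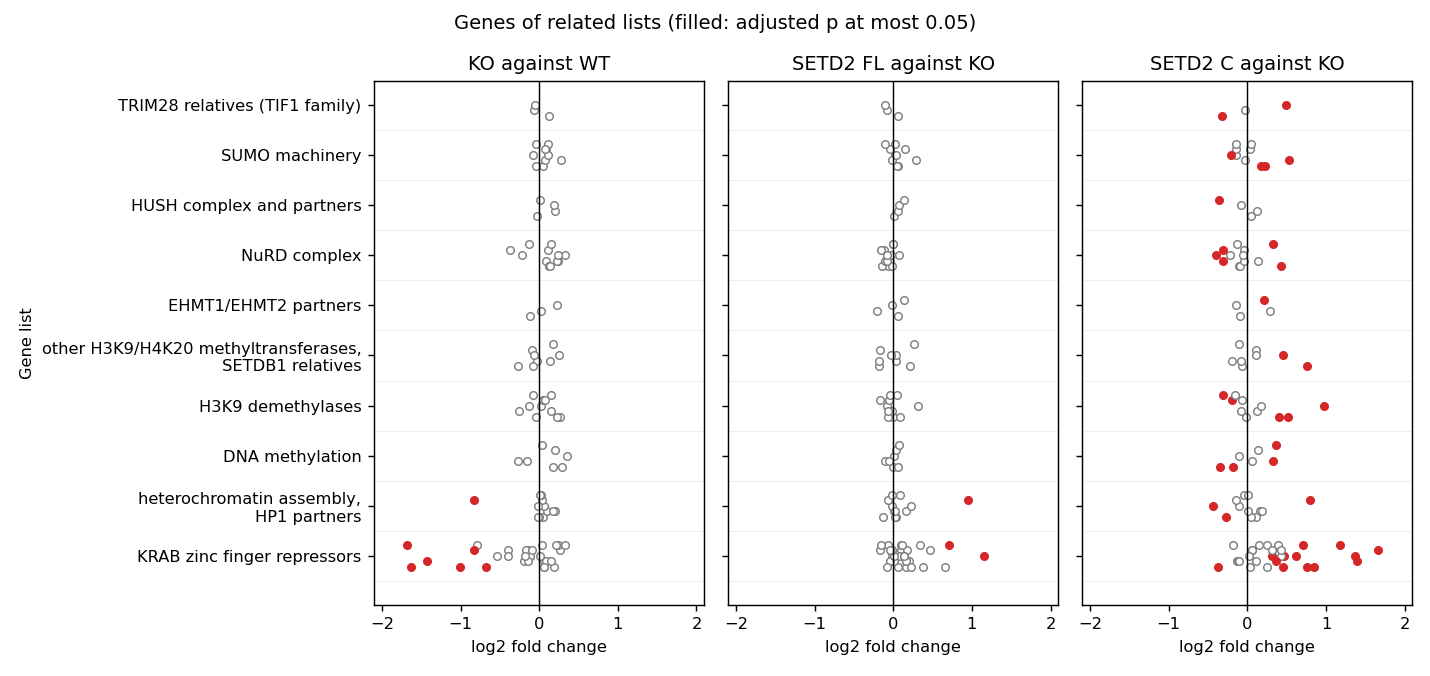
Log2 fold change of every tested gene of the 10 related lists in 3 comparisons, 1 point a gene, filled where the Benjamini-Hochberg adjusted p from limma was at most 0.05, with vertical offsets for legibility. Filled points for KO against WT are LRIF1 at -0.82 and KRAB zinc finger genes down to -1.68 (ZNF91), and with SETD2 C against KO they occur in every list, up to 1.66 (ZNF331).

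With SETD2 C relative to KO, at least 1 gene passed in each list, where 36.2% of all genes passed. Those that passed were 66.7% of the TIF1 genes, 40.0% of the SUMO genes, 1 of 4 HUSH genes and 38.5% of the NuRD genes. Of the TIF1 family, which shares the domain architecture of TRIM28, TRIM66 rose (0.49, limma, Benjamini-Hochberg adjusted p = 0.0261), TRIM24 fell (-0.32, adjusted p = 0.0183) and TRIM33 did not pass. TRIM66 scaled TPM was 1.72 and 1.504 in KO, 1.49 and 1.43 for SETD2 FL and 2.63 and 2.30 for SETD2 C, and TRIM24 scaled TPM was 20.9 and 19.2, 19.8 and 22.1, and 16.3 and 15.6. Of the SUMO machinery, through which TRIM28 recruits its partners, 3 genes rose and 1 fell, with PIAS2 at 0.54 (limma, Benjamini-Hochberg adjusted p = 0.00250) and PIAS1 at 0.23 (adjusted p = 0.0332). Of 4 genes of the HUSH complex, which silences retroelements with SETDB1, TASOR fell (-0.36, limma, Benjamini-Hochberg adjusted p = 0.00275), from 39.5 and 38.4 in KO to 29.5 and 30.8. Of 13 genes of the NuRD remodelling complex, 2 rose and 3 fell, with MTA3 at 0.43 (limma, Benjamini-Hochberg adjusted p = 0.00475) and MBD3 at -0.40 (adjusted p = 0.00849). The TRIM66 call was lost without any 1 of the 4 libraries compared (KO replicates 2 and 4 and SETD2 C replicates 1 and 2, limma, Benjamini-Hochberg adjusted p from 0.0532 to 0.142) with a filter of any TPM above 0 (0.0659) and with quantile normalization (0.317), within 0.00852 to 0.317. The PIAS1 call was likewise lost without each of the 4 (limma, Benjamini-Hochberg adjusted p from 0.0701 to 0.153), with quantile normalization (0.0531), without the trend (0.0508) and after adjustment for GC content (0.147) or length (0.0735), within 0.00405 to 0.153. TRIM24 was lost without KO replicate 2 (limma, Benjamini-Hochberg adjusted p = 0.0974) or SETD2 C replicate 2 (0.0944), without scaling (0.1498) and with the rescaling without mitochondrial genes and SETD2 (0.0668), within 0.00845 to 0.150, and MBD3 without SETD2 C replicate 2 (0.0510), within 0.00487 to 0.0510. Against SETD2 FL, the TIF1 family had 1 higher and 1 lower, the SUMO genes 1 and 2, the HUSH genes 0 and 1 and the NuRD genes 2 and 2, where 21.4% of all genes were higher and 16.8% lower.

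Genes that write, erase or read H3K9 and DNA methylation were next, again beside 36.2% of all genes passing for SETD2 C against KO. Those that passed were 1 of 4 EHMT partners, 2 of 8 other methyltransferase genes, 45.5% of the demethylases and 57.1% of the DNA methylation genes. Of 4 EHMT partners ZNF644 rose (0.21, limma, Benjamini-Hochberg adjusted p = 0.0309), and of 8 other H3K9 and H4K20 methyltransferase genes and SETDB1 relatives 2 rose, ATF7IP2 (0.76, adjusted p = 0.00143) and KMT5B (0.46, adjusted p = 0.00214). ATF7IP2, a paralog of ATF7IP, had scaled TPM of 13.05 and 10.6 in KO, 13.7 and 13.6 for SETD2 FL and 19.6 and 21.1 for SETD2 C. Of 11 H3K9 demethylases 3 rose and 2 fell. KDM3A, which removes mono- and dimethylation, had scaled TPM of 23.0 and 24.1 in KO, 21.6 and 22.9 for SETD2 FL and 46.6 and 47.2 for SETD2 C. KDM3A rose by 0.98 relative to KO (SE 0.06, limma, Benjamini-Hochberg adjusted p = 5.9e-05) and by 1.06 relative to SETD2 FL (adjusted p = 3.6e-05), and JMJD1C rose by 0.52 relative to KO (adjusted p = 0.0141). The KDM3A calls held in all 15 alternatives of each comparison, while its change relative to KO was short of 2-fold. Of 7 DNA methylation genes 2 rose and 2 fell, with UHRF1, which ties maintenance methylation to H3K9 methylation, at -0.35 (limma, Benjamini-Hochberg adjusted p = 0.00433). ZNF644 lost its call without any 1 of the 4 libraries compared (KO replicates 2 and 4 and SETD2 C replicates 1 and 2, limma, Benjamini-Hochberg adjusted p from 0.0522 to 0.167), without the trend (0.0651) and after adjustment for GC content (0.386) or length (0.0686), within 0.00417 to 0.386. JMJD1C lost its call without KO replicate 4 (limma, Benjamini-Hochberg adjusted p = 0.0749) or SETD2 C replicate 2 (0.0779) and with a filter of any TPM above 0 (0.0537), within 0.00245 to 0.0779. Against SETD2 FL, 0 of the EHMT partners passed with limma, as 0 had an unadjusted p under 0.05, 3 of the other methyltransferase genes were higher, 3 demethylases were higher and 1 lower, and 1 DNA methylation gene was higher and 2 lower, beside 21.4% and 16.8% of all genes.

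SETD2 C was also compared with SETD2 FL in these lists, with the same SETD2 C libraries. TRIM66 (0.60), PIAS2 (0.25), MTA3 (0.44), ATF7IP2 (0.56), KMT5B (0.42), JMJD1C (0.52) and UHRF2 (0.38) were higher with SETD2 C, and TRIM24 (-0.38), PIAS4 (-0.30), TASOR (-0.50), MBD3 (-0.47) and UHRF1 (-0.41) were lower, all past the limma threshold. The TRIM66 call was lost without SETD2 FL replicate 4 (limma, Benjamini-Hochberg adjusted p = 0.0503) or SETD2 C replicate 1 (0.0735) and with quantile normalization (0.0965), within 0.00412 to 0.0965. TRIM24 lost its call without SETD2 FL replicate 4 (limma, Benjamini-Hochberg adjusted p = 0.0510) or SETD2 C replicate 2 (0.0526), within 0.00467 to 0.0526. PIAS2 lost it without any 1 of SETD2 FL replicates 3 and 4 and SETD2 C replicates 1 and 2 (limma, Benjamini-Hochberg adjusted p from 0.0977 to 0.165) and in 5 other alternatives, within 0.0112 to 0.165. PIAS4 lost it without SETD2 FL replicate 3 (limma, Benjamini-Hochberg adjusted p = 0.188) or SETD2 C replicate 2 (0.192) and in 4 other alternatives, within 0.0212 to 0.192, and JMJD1C without SETD2 FL replicate 4 (0.0628) or SETD2 C replicate 2 (0.0709) and with the filter above 0 (0.0516), within 0.00258 to 0.0709.

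LRIF1, which binds HP1 and takes part in heterochromatin compaction, changed in the first table and again in the second. Its scaled TPM was 9.55 and 9.46 in WT and 5.19 and 5.11 in KO. In the second table LRIF1 stood at 2.65 and 2.20 in KO, 5.17 and 5.10 for SETD2 FL and 4.40 and 4.75 for SETD2 C. The libraries labelled KO were the lowest of both tables, with no overlap. LRIF1 fell in KO relative to WT (log2 fold change -0.82, SE 0.09, limma, Benjamini-Hochberg adjusted p = 0.00760), and relative to KO it rose with SETD2 FL (0.95, adjusted p = 0.0370) and SETD2 C (0.80, adjusted p = 0.00200). SETD2 C and SETD2 FL did not differ past the threshold (-0.15, limma, Benjamini-Hochberg adjusted p = 0.333). The call in KO was lost without KO replicate 2 (limma, Benjamini-Hochberg adjusted p = 0.0533) and with a filter of any TPM above 0 (0.0593), within 0.00638 to 0.0593. The call with SETD2 FL was lost without any 1 of the 4 libraries compared (KO replicates 2 and 4 and SETD2 FL replicates 3 and 4, limma, Benjamini-Hochberg adjusted p from 0.107 to 0.158), with a filter above 0 (0.197), without the trend (0.0968) and with only those 4 libraries in the fit (0.0542), within 0.0134 to 0.197. The call with SETD2 C held in all 15 alternatives (limma, Benjamini-Hochberg adjusted p from 0.000431 to 0.0174). Of the other 11 HP1 and heterochromatin assembly partners, 2 fell with SETD2 C relative to KO, among them the lamin B receptor LBR (-0.43, limma, Benjamini-Hochberg adjusted p = 0.00670). Of the 12 genes of the list 3 passed for SETD2 C against KO, where 36.2% of all genes did, and against SETD2 FL 1 was higher and 2 lower, where 21.4% and 16.8% of all genes were.

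The KRAB zinc finger genes were the list with the largest changes. This list was also the longest and, like the others, was chosen with earlier results of these data known. Its counts beside those of all genes therefore describe the listed genes and not KRAB zinc finger genes in general. Of 36 listed genes 30 were tested in each table. The other 6, ZNF43, ZNF93, ZNF141, ZNF808, ZFP57 and ZIM3, reached a TPM of no more than 0.47 in any library. In the libraries labelled KO 6 fell relative to WT and 0 rose with limma (13 of 30 had an unadjusted p under 0.05, as did 24.9% of all genes), where 3.17% of all genes were lower, and 4 fell by at least 2-fold, with a list median of -0.13 against -0.01 for all genes. ZNF91 scaled TPM was 3.09 and 2.40 in WT and 0.596 and 0.424 in KO, ZNF382 was 3.19 and 4.202 in WT and 0.729 and 0.983 in KO, and ZFP28 was 1.08 and 1.65 in WT and 0.170 and 0.202 in KO. In these genes both KO libraries lay below both WT libraries. ZNF91 and ZFP28 would not have reached the filter without the WT libraries, and without such genes 4 of the list fell, 2 by at least 2-fold. The same removal took the count of all genes that fell from 467 to 389 and of those changed by at least 2-fold from 200 (1.36%) to 108. The log2 fold changes were -1.68 for ZNF91 (limma, Benjamini-Hochberg adjusted p = 0.00665), -1.62 for ZNF382 (0.00714), -1.43 for ZFP28 (0.0202) and -1.01 for ZNF568 (0.0403). ZNF331 (-0.83, limma, Benjamini-Hochberg adjusted p = 0.0422) and ZNF274 (-0.67, adjusted p = 0.0169) complete the 6, ZNF274 being named after its values were seen. These levels are low, and the added 0.5 makes such fold changes smaller than the ratios of TPM.

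The count of 6 depended on the processing. It was 0 with a filter of any TPM above 0 (33 genes tested), 1 with a filter of TPM of at least 1 in every library (25 tested) and 4 with quantile normalization. It was 4 without WT replicate 1, 4 without WT replicate 2, 2 without KO replicate 1 and 2 without KO replicate 2. ZNF91 and ZNF382 passed without each of these libraries and were lost with the filter above 0. ZFP28 did not reach the filter, and so was not tested, without either WT library. ZFP28 lost its call without KO replicate 1 (limma, Benjamini-Hochberg adjusted p = 0.0754) or 2 (0.0884) and with the filter above 0 (0.0906), within 3.5e-07 to 0.0906, and ZNF274 without KO replicate 1 (0.0676) or 2 (0.1103), without scaling (0.0646) and with the filter above 0 (0.0853), within 0.0136 to 0.1103. ZNF568 lost it without WT replicate 2 (limma, Benjamini-Hochberg adjusted p = 0.0535), KO replicate 1 (0.105) or KO replicate 2 (0.188) and in 3 other alternatives, within 0.00109 to 0.188, and ZNF331 without each of the 4 libraries (from 0.0525 to 0.187) and in 2 other alternatives, within 0.0211 to 0.187.

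The same list was read in the second table. Relative to KO, 12 KRAB zinc finger genes rose and 1 fell with SETD2 C, 43.3% of the list where 36.2% of all genes passed (21.1% higher), and 4 rose by at least 2-fold where 4.06% of all genes changed as much, with a list median of 0.32 against 0.05 for all genes. ZNF331 scaled TPM was 0.497 and 1.013 in KO, 0.795 and 0.985 for SETD2 FL and 2.79 and 4.07 for SETD2 C. ZNF91 was 0.631 and 0.522 in KO, 0.481 and 0.4525 for SETD2 FL and 1.71 and 2.17 for SETD2 C. ZFP28 was 0.310 and 0.345 in KO, 0.481 and 0.392 for SETD2 FL and 1.68 and 1.68 for SETD2 C. In each of these genes the SETD2 C libraries lay above the other 4. ZFP28 and ZNF382 reached the filter through the SETD2 C libraries alone, and without such genes 10 of the list rose, 3 by at least 2-fold. Over all genes the same removal took those that rose from 3359 to 2986 and those changed by at least 2-fold from 647 to 490. The log2 fold changes were 1.66 for ZNF331 (limma, Benjamini-Hochberg adjusted p = 0.00201), 1.40 for ZFP28 (0.000937), 1.38 for ZNF10 (0.000825) and 1.18 for ZNF91 (0.00210). Without KO replicate 2 or 4, 9 of the genes rose, without SETD2 C replicate 1, 7 of 28 rose, and without SETD2 C replicate 2, 8 of 28. Quantile normalization gave 8 higher and 2 lower, and TPM as deposited gave 18 higher and 0 lower. Against SETD2 FL, 8 were higher and 3 lower with SETD2 C, where 21.4% and 16.8% of all genes were, and 3 (ZFP28 among them) by at least 2-fold, where 3.78% of all genes were, with a median of 0.17. The 8 became 6 without SETD2 FL replicate 3, 5 without SETD2 FL replicate 4 and 4 without SETD2 C replicate 1 or 2, and quantile normalization gave 6 higher and 4 lower with a median of 0.01.

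The KRAB zinc finger genes were also compared between SETD2 FL and KO. ZNF10 and ZNF268 rose and 0 fell, 6.67% of the list where 0.207% of all genes passed (5 of 30 had an unadjusted limma p under 0.05, as did 15.9% of all genes), with a list median of 0.13 against 0.01 for all genes. ZNF10 scaled TPM was 0.735 and 0.564 in KO, 1.88 and 2.21 for SETD2 FL and 2.70 and 2.26 for SETD2 C. ZNF268 was 3.79 and 4.06 in KO, 6.86 and 6.56 for SETD2 FL and 4.41 and 4.37 for SETD2 C. The KO libraries were the lowest for both genes, and ZNF268 was highest with SETD2 FL. In the first table, by contrast, ZNF268 was 6.04 and 6.53 in WT and 7.38 and 7.67 in KO, without passing (log2 fold change 0.24). The log2 fold changes were 1.15 for ZNF10 (limma, Benjamini-Hochberg adjusted p = 0.0471) and 0.70 for ZNF268 (0.0435). Both calls were lost without any 1 of the 4 libraries compared (KO replicates 2 and 4 and SETD2 FL replicates 3 and 4, limma, Benjamini-Hochberg adjusted p from 0.107 to 0.205 for ZNF10 and from 0.120 to 0.216 for ZNF268) and in 5 (ZNF10) and 4 (ZNF268) other alternatives, within 0.0242 to 0.221 and 0.0225 to 0.216 over all alternatives. The number of genes that rose ran from 0 to 3 over the alternatives.

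**Figure D4:**
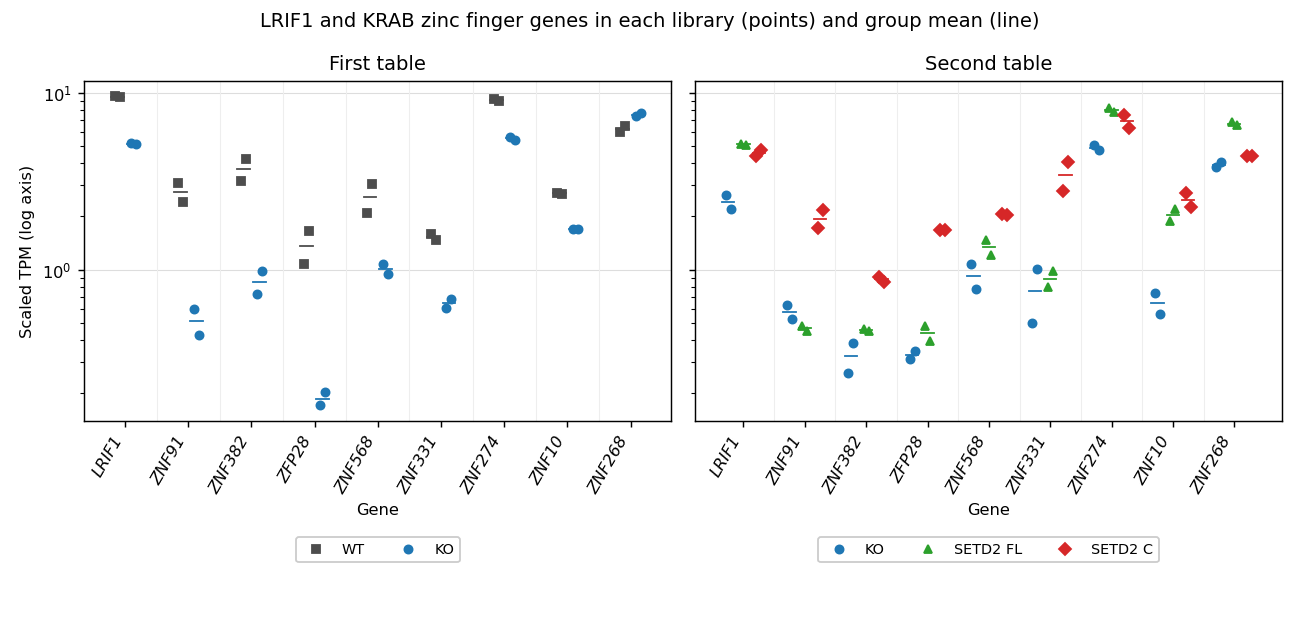
Scaled TPM on a log axis of LRIF1 and 8 KRAB zinc finger genes in every library of the first table (left) and the second (right), with each library as a point and each group mean as a line. In LRIF1 and the 6 genes from ZNF91 to ZNF274 the KO points of the first table lie below WT, and in ZNF91 the SETD2 C points (1.71 and 2.17) lie above SETD2 FL (0.481 and 0.4525).

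The 7 listed genes that fell in KO relative to WT, LRIF1 and the 6 KRAB zinc finger genes, were then read in the second table, whose libraries are not those of the first. ZFP28 and ZNF382 reached the filter on low values there through the SETD2 C libraries alone, so their rise with SETD2 C is bound up with their being tested. The other 5 were higher than KO past the threshold with SETD2 C, and of these ZNF274 lost its call without KO replicate 4 (limma, Benjamini-Hochberg adjusted p = 0.0599) or SETD2 C replicate 1 (0.0685), within 0.00224 to 0.0685. With SETD2 FL 6 of the 7 estimates were positive, those of ZFP28 and ZNF382 among them, and 1, LRIF1, passed. Over all genes tested, 51.4% of the estimates with SETD2 FL were positive and 0.207% of genes passed. Of all genes that fell in KO in the first table, 422 were tested in the second, and 168 (39.8%) were higher and 35 (8.29%) lower with SETD2 C, with limma in both tables. With SETD2 FL 2 of these 422 were higher and 1 lower, where 0.176% and 0.0314% of all genes were, and 57.1% of their estimates were positive. Of the genes that rose in KO, 193 were tested in the second table, and 30.6% were higher and 18.7% lower with SETD2 C, where 21.1% and 15.1% of all genes were. With SETD2 FL 5 of these 193 (2.59%) were higher and 0 lower, beside the same shares of all genes, 0.176% and 0.0314%. Their estimates with SETD2 FL were positive for 60.6%, so a positive estimate was not particular to genes that fell in KO.

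Mitochondrially encoded transcripts moved with the groups. The 13 protein genes took 22.6% and 13.8% of TPM in WT and 11.8% and 12.2% in KO of the first table. In the second they took 6.73% and 5.88% in KO, 10.4% and 7.43% for SETD2 FL and 2.44% and 2.78% for SETD2 C. Relative to KO, 11 of the 13 fell with SETD2 C (median log2 fold change -1.37), and relative to SETD2 FL 13 of 13 fell (median -2.12). Of all genes, 15.1% and 16.8% were lower in these comparisons. In KO against WT and SETD2 FL against KO 0 of 13 passed with limma. At an unadjusted limma p under 0.05 there were 5 and 11, beside 24.9% and 15.9% of all genes. The most abundant was MT-ATP8 in the first table, MT-CO2 in KO and SETD2 FL of the second and MT-CO1 with SETD2 C. The part of this difference in the results for the members was not tested beyond the rescaling without these genes.

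The markers of the line were checked in the same libraries. VIM, KRT8, KRT18, NEFM, NEFL, PAX2 and LIN28B passed the filter in all groups, and PTPRC, ALB and PECAM1, of blood, liver and endothelium, stayed at a TPM of no more than 0.38. COL1A1, of fibroblasts, was not near 0, with a TPM of 6.43 and 7.03 in WT and 10.11 and 10.23 in KO of the first table, and of 6.83 and 6.86 in KO, 7.01 and 8.97 for SETD2 FL and 12.1 and 10.7 for SETD2 C in the second. In the second table KRT8 had a mean scaled TPM of 29.9 in KO, 33.2 with SETD2 FL and 92.0 with SETD2 C, NEFM 128, 121.5 and 295, and NEFL 64.9, 59.9 and 152. The other markers there differed less, with LIN28B at 28.9, 28.0 and 25.2, VIM at 828, 706 and 861, KRT18 at 78.0, 80.7 and 90.5 and PAX2 at 1.42, 1.22 and 1.61. From WT to KO in the first table the means were 29.6 and 40.8 for LIN28B, 66.6 and 88.3 for KRT18, 52.4 and 71.3 for NEFL, 502 and 615 for VIM, 31.1 and 31.2 for KRT8, 176 and 185 for NEFM and 2.04 and 1.79 for PAX2. The part of these differences in the results was not tested.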

How the data were processed

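RNA-seq of HEK293T cells was taken from 2 tables of TPM, 1 column per library, in which the authors had aligned reads to hg38 with Ensembl 96 gene models by STAR 2.6.1c and estimated TPM per gene with RSEM 1.3.0 before they deposited them. Every column was mapped to a library, and 0 columns were left over. TPM carry 2 decimals and no read counts, so the depth per library and the precision it gives are unknown. Whether counting was stranded was not stated. Gene types and positions came from GENCODE annotation on GRCh38, where the identifier found 58472 of 58884 genes, the symbol 31 more and neither the other 381. A gene was kept if protein-coding or lncRNA and at a TPM of 0.5 or more in 2 or more libraries of a table. TPM were divided by median-ratio factors, from 0.879 to 1.06 in the first table and from 0.956 to 1.07 in the second, 0.5 was added and log2 taken, which makes fold changes of low genes smaller than their ratios of TPM. R 4.3.3 and limma 3.58.1 were used to compare groups, through lmFit, contrasts.fit and eBayes with trend, with 2 residual degrees of freedom in the first table and 3 in the second, where all 6 libraries entered 1 fit. P values were adjusted by Benjamini-Hochberg over all genes tested, and no test crossed the tables. The code was tested on simulated data.

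The members and lists were chosen with earlier results of these data known. All members were named in every comparison, with SETD2, the members' annotated pseudogenes, the 3 genes most like the member of widest range, and from each list up to 2 genes with the largest change among those past the threshold and any that also changed by at least 2-fold. A gene that this rule would also name is not reported here. Genes near or overlapping a member were taken by position, within 1000 bp. Markers of HEK293T and of other cell types were checked. The alternatives tried were an added 0.1 or 1 in place of 0.5, a looser and a stricter filter, no scaling, quantile normalization, rescaling without mitochondrial genes and SETD2, eBayes without trend, an added 2-fold limit, fits of the 4 libraries compared, the replicate number as a block in the first table and fits without each library. Adjustments for GC content and transcript length were added after the data were seen. Promoters came from the RefSeq table on GRCh38.p14. The ChIP and splicing data of the series were not analysed here.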

Additional observations from a re-analysis of the deposited data

How the results depend on the processing

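None of the 10 genes passed for KO against WT or for SETD2 FL against KO under any alternative. Where 4 passed for SETD2 C against KO and 6 for SETD2 C against SETD2 FL, a filter of any TPM above 0 gave 2 and 2, eBayes without trend 2 and 3, and the added 2-fold limit 0 and 0; the cause was not tested. No scaling gave 2 (CBX1 and CBX5) and 3 (CBX1, CBX3 and CBX5), so every lower call was lost and CBX1 against KO and CBX3 against SETD2 FL entered; the cause was not tested. Leaving out 1 library gave 0 to 3 for SETD2 C against KO, with 2 without KO replicate 2, 3 without KO replicate 4, 3 without SETD2 C replicate 1 and 0 without SETD2 C replicate 2. It gave 2 to 4 for SETD2 C against SETD2 FL, with 3 without SETD2 FL replicate 3, 3 without SETD2 FL replicate 4, 4 without SETD2 C replicate 1 and 2 without SETD2 C replicate 2. In such fits the lone library was assumed to vary like the other groups. Pseudocounts of 0.1 and 1 kept 4 and 6. Adjustment for GC content gave 5 and 5 and for transcript length 6 and 5, both chosen after the data were seen. Of 600 member values under alternatives other than the 2-fold limit, 546 kept their side of the threshold, 45 lost the call, 9 gained it and 0 reversed. The 43 that changed sign were past the threshold in neither fit. Of 1585 values of list genes, 1453 kept their side, 115 lost the call, 17 gained it and 0 reversed.

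Over all genes, leaving out 1 library moved the 661 genes past the threshold for KO against WT to between 157 and 1245, the 33 for SETD2 FL against KO to between 2 and 9, the 5764 for SETD2 C against KO to between 3065 and 3937 and the 6087 for SETD2 C against SETD2 FL to between 3438 and 4413. The filter of any TPM above 0 left 86 for KO against WT and 3 for SETD2 FL against KO. Without the trend 413 and 10 were left, and without scaling 58 passed for SETD2 FL against KO.

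Replicate numbers 1 and 2 occur in both groups of the first table, and across genes the differences between the replicates of WT and of KO had a correlation of 0.147. With 2 pairs the libraries share only a number. As a block this number gave 1269 genes past the threshold in place of 661, and 0 of the 10 genes.

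The main limits are 2 libraries a group, not stated to be separate cultures, unknown depth, and a KO control that was not transfected.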
